A study of Mus musculus with 12 samples.

Results

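Genomic imprinting restricts the expression of a small set of genes to the copy inherited from 1 parent. The mark is DNA methylation laid down in the egg or the sperm and copied at each cell division, and the genes lie in clusters, each under a shared control region. Many imprinted genes act on growth, and in the adult brain several of them are known for roles in stem cells and in cell cycle exit.

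The genes followed here were 10 imprinted regulators of growth, taken by symbol from the table of 17365 genes: the transcription factor genes Plagl1 and Peg3, Mest, the retrotransposon-derived Peg10, the long non-coding RNAs H19 and Meg3, Ndn, the ligand genes Igf2 and Dlk1, and the adaptor gene Grb10. All 10 were in the table, and 8 had enough counts to be tested, Grb10 and Meg3 being too low. Of these genes Meg3, H19 and Grb10 are listed as expressed from the maternal copy and the other 7 from the paternal copy. RNA totals do not separate the parental copies, so none of the values below says which copy was read.

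RNA-seq was measured in 12 libraries of wild-type adherent neural stem cells (NSCs) grown from the subventricular zone of mice 6 to 8 weeks old. ANS4 came from the MF1 strain and BL6 from C57BL/6, so that 1 line stood for each strain, and a difference between lines cannot be told apart from a difference between 2 cell cultures. Each line was kept for 3 days in EGF with FGF2 (EGF/FGF, proliferating), in BMP4 alone (BMP, dormant quiescent NSCs or d-qNSCs) or in BMP4 with FGF2 (BMP/FGF, primed quiescent NSCs or p-qNSCs), every factor at 10 ng/ml, with 2 libraries for each line and condition. EGF was thus absent from both quiescent states, and BMP/FGF shared FGF2 with EGF/FGF and BMP4 with BMP.

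The libraries held 18069052 to 19451818 estimated counts, so that 1 count was worth 0.0514 to 0.0553 CPM (counts in every 1000000 counts of a library). CPM values below are relative to the library total after scaling by the trimmed mean of M values (TMM), and changes are log2 differences with their standard error (SE) from edgeR's quasi-likelihood test over 13641 genes, called at a false discovery rate (FDR) under 0.05. The study calls its replicates biological, but neither it nor the labels say whether they were separate cultures, and p-values measure the spread between these libraries, which may be technical. All 12 listed NSC markers were present, with summed levels of 8277 to 8924 CPM in EGF/FGF, rising to 10028 to 11237 with BMP4 alone and 13045 to 13446 with BMP4 and FGF2. The markers did not move together: of the 12, 7 were called higher in BMP than in EGF/FGF, Gfap (log2 difference 3.03) and Slc1a3 (1.36) among them, and 5 lower, Nes (−2.18), Fabp7 (−2.40), Egfr (−0.90), Olig2 (−1.15) and Hes5 (−1.23). The 2 BL6 BMP libraries differed most from each other, with a mean chi-square of 12.4 per gene against 2.14 to 4.76 in the other 5 pairs.

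The upstream sequences of 3 members are shown first: Mest, which fell under BMP, Plagl1, which rose, and Peg3, which differed between the lines. They are the 250 bases before the annotated start in RefSeq (GRCm38.p6), 5′ to 3′ on the gene's strand. Capitals mark GGCGCC, a palindrome that reads the same on both strands and is known as a GC-rich element bound by BMP-activated SMAD proteins. It stood in 9.59% of the 32851 promoters in the table and in 3 of the 15 promoters of the 8 members listed there, belonging to Mest and Peg3. The 2 Mest windows with a match start 3 bases apart and hold the same site, and the other listed Mest promoter, chr6:30733256-30733505, had no match and 7 CpG dinucleotides. A match is a description of the letters, not evidence of binding.
Mest, chr6:30737800-30738049, + strand: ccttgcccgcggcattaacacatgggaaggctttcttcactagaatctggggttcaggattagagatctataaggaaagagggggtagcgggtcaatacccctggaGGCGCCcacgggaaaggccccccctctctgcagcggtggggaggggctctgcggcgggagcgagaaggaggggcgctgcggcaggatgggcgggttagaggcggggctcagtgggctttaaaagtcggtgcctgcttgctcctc
Plagl1, chr10:13090582-13090831, + strand: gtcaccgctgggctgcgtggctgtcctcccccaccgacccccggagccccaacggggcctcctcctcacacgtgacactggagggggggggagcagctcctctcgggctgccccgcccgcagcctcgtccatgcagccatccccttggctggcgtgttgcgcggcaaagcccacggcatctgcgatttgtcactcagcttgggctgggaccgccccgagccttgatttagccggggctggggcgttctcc
Peg3, chr7:6730420-6730669, - strand: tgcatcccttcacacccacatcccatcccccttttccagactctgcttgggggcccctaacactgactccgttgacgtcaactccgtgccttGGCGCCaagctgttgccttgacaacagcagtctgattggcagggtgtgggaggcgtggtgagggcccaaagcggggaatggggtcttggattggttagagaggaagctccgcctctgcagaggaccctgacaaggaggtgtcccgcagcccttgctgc
The Mest window had 14 CpG dinucleotides, the Plagl1 window 19 and the Peg3 window 8, against a median of 6 over all promoters. The annotated start of Usp29, a neighbour of Peg3 on the opposite strand, lies inside the Peg3 window at position 6730578 of chromosome 7.

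Mest and H19 also carry microRNAs inside their gene bodies. The mature forms are printed because both hosts changed with condition. The microRNAs themselves were not measured. Capitals mark the seed, bases 2 to 8.
miR-335-5p, inside Mest: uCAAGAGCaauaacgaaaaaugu
miR-335-3p, inside Mest: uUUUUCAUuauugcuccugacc
miR-675-5p, inside H19: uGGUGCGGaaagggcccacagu
miR-675-3p, inside H19: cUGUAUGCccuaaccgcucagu
No 2 of these share a seed. The miR-335 hairpin lay in the exons of 0 of 11 annotated Mest transcripts, and the miR-675 hairpin in the exons of 3 of 7 H19 transcripts.

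The members were expressed over a wide range of levels. Taking CPM per kilobase of the gene's median transcript length (CPM per kb), over all 12 libraries, Mest stood highest at 583 ± 544 (SD, n = 12), followed by Plagl1 at 117 ± 84.5, Peg10 at 27.4 ± 13.1, Peg3 at 26.1 ± 8.02 and H19 at 16.5 ± 8.75. Ndn had 7.17 ± 0.552, Igf2 1.13 ± 0.302, Dlk1 0.558 ± 0.268, Grb10 0.204 ± 0.168 and Meg3 0.111 ± 0.0818 CPM per kb. These spreads include the condition differences, and neighbours from Mest down to H19 overlapped in their spread, as did Dlk1 with Grb10 and Grb10 with Meg3. The order depended on the transcript taken, since Plagl1 came to 10.0 and Peg3 to 12.1 CPM per kb with the longest annotated transcript.

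Summed over the members, EGF/FGF libraries held 1021 to 1184 CPM, here per library total without TMM scaling, BMP libraries 505 to 806 and BMP/FGF libraries 465 to 542. Mest alone supplied 71.0% to 75.1% of the members' counts in EGF/FGF. In BMP the largest share passed to Peg10, at 43.1% to 48.1%, and in BMP/FGF Mest was again the largest, at 32.5% to 35.0%.

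**Figure D1:**
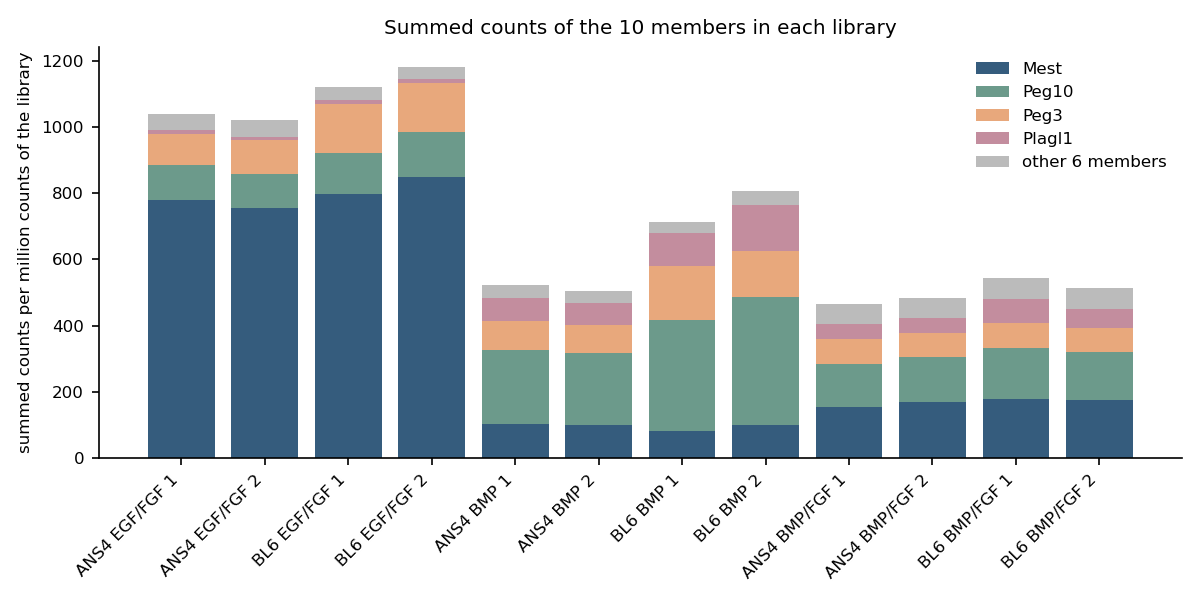
Summed counts of the 10 members in each of the 12 libraries, in CPM of the library total, stacked by gene (vertical axis, summed level; horizontal axis, line, condition and replicate). The EGF/FGF bars reach 1021 to 1184 and are mostly Mest, whereas the BMP bars stop at 505 to 806 with Peg10 as the largest part.

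In BMP against EGF/FGF, 2 of the 8 tested members were called higher (Plagl1, Peg10) and 3 lower (Mest, H19, Dlk1). Across all 13641 tested genes 40.2% were called higher and 38.8% lower, so the share of members called was not above that background. In BMP/FGF against EGF/FGF, 3 were called higher (Plagl1, H19, Peg10) and 3 lower (Mest, Dlk1, Peg3), where 40% of all genes were higher and 38.1% lower. Between the quiescent states, BMP/FGF against BMP, 2 were called higher (H19, Mest) and 3 lower (Peg10, Plagl1, Peg3), against 19.2% and 21.5% of all genes. The median log2 difference of the tested members was −0.22, −0.11 and −0.23 in the 3 comparisons, beside 0.02, 0.01 and −0.01 over all tested genes. The comparisons share libraries, and each member's values are therefore given side by side.

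**Figure D2:**
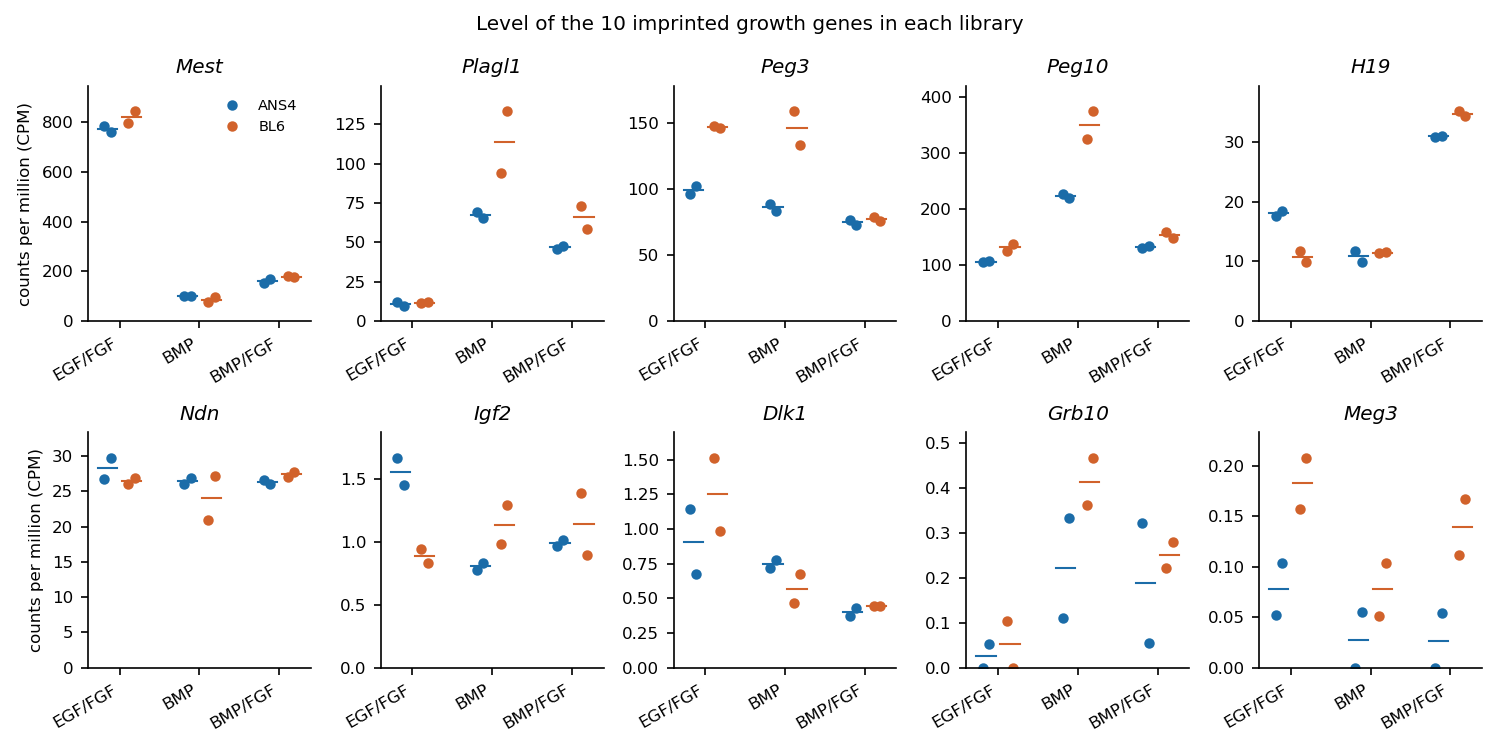
Level of each member in the 12 libraries (vertical axis, CPM on a linear scale starting at 0 and set per gene; horizontal axis, condition). Points are single libraries, ANS4 in blue and BL6 in orange, and short lines are the mean of the 2 libraries of a line; Mest stands at 759 to 845 CPM in EGF/FGF and at or below 180 CPM elsewhere, Plagl1 shows the opposite order, and Ndn stays between 20.9 and 29.8 CPM.

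Mest, which encodes a hydrolase-like protein of the endoplasmic reticulum (chr6:30723547-30748465, + strand), had the largest fall of the members. It stood at 787 and 759 CPM in the ANS4 EGF/FGF libraries and at 798 and 845 in BL6. In BMP the values were 102 and 99.0 in ANS4 and 76.4 and 96.1 in BL6, and in BMP/FGF 154 and 169 in ANS4 and 180 and 178 in BL6. No 2 conditions overlapped: EGF/FGF was highest, BMP lowest and BMP/FGF in between, in both lines. Mest fell 8.53-fold in BMP (log2 difference −3.09, SE 0.09, FDR = 2.05e-15, edgeR) and 4.68-fold in BMP/FGF (−2.23, SE 0.08, FDR = 7.33e-14), and was 1.82-fold higher in BMP/FGF than in BMP (0.87, SE 0.08, FDR = 3.85e-07). The annotated span shares 912 bases with Copg2 on the opposite strand, and whether the counting used strand is not stated. Copg2 itself stood at 108.6 to 145.8 CPM with log2 differences of −0.06, 0.07 and 0.14, none called, while its change between BMP and BMP/FGF differed between the lines (interaction 0.41, FDR = 0.00665).

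In bulk libraries a fall in a transcript can come from fewer expressing cells or from less RNA per cell, and these cannot be told apart here. The 10 listed proliferation genes fell together with Mest: 10 of 10 were lower in both quiescent states, with a summed level of 2889 to 3432 CPM in EGF/FGF that dropped to a range of 482 to 699 under BMP and a median of 339 under BMP/FGF. The order of the quiescent states was the opposite of that of Mest, since all 10 were lower in BMP/FGF than in BMP. Their part in the Mest difference was not tested.

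Plagl1 (also Zac1; chr10:13060504-13131694, + strand), a zinc finger transcription factor known to promote cell cycle arrest, moved the other way. It stood at 11.9 and 9.37 CPM in ANS4 and 11.5 and 12.1 in BL6 under EGF/FGF. Under BMP it reached 69.3 and 65.4 CPM in ANS4 and 94.0 and 133 in BL6, and under BMP/FGF 46.0 and 47.7 in ANS4 and 73.2 and 58.6 in BL6. The EGF/FGF libraries lay far below all others, whereas BMP and BMP/FGF overlapped when the lines were pooled and were separate within each line. The rise was 7.87-fold in BMP (log2 difference 2.98, SE 0.13, FDR = 7.05e-13) and 4.97-fold in BMP/FGF (2.31, SE 0.13, FDR = 2.43e-11), and BMP/FGF was below BMP by a log2 difference of −0.66 (SE 0.12, FDR = 2.22e-04).

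Peg10 (chr6:4747306-4760517, + strand), a domesticated retrotransposon gene needed for the placenta, rose mainly in d-qNSCs. In EGF/FGF it stood at 106 and 106 CPM in ANS4 and 126 and 137 in BL6. In BMP the levels were 227 and 220 CPM in ANS4 and 325 and 374 in BL6, and in BMP/FGF 130 and 135 in ANS4 and 158 and 148 in BL6. All BMP libraries lay above all others, and BMP/FGF overlapped with EGF/FGF across the lines. The rise was 2.38-fold in BMP (1.25, SE 0.08, FDR = 1.23e-10). The smaller difference of BMP/FGF from EGF/FGF (0.27, SE 0.08, FDR = 0.00562) was not called without the line term (FDR = 0.1), and BMP/FGF was below BMP (−0.98, SE 0.08, FDR = 6.93e-08).

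Peg3 (chr7:6703892-6730431, - strand), a zinc finger protein gene paternally expressed like Plagl1 and Mest, fell in BMP/FGF. In EGF/FGF it was at 96.5 and 102 CPM in ANS4 and 148 and 147 in BL6. In BMP it was at 88.8 and 83.7 CPM in ANS4 and 159 and 133 in BL6, and in BMP/FGF the lines met, at 77.0 and 73.0 in ANS4 and 78.7 and 75.9 in BL6. All BMP/FGF libraries lay below all others. The log2 difference was −0.10 in BMP (SE 0.11, 95% interval −0.31 to 0.11, FDR = 0.403), −0.66 in BMP/FGF (SE 0.11, FDR = 2.52e-05) and −0.56 between BMP/FGF and BMP (SE 0.11, FDR = 5.75e-04). With ANS4 alone the BMP difference was called, at −0.21 (FDR = 0.0074).

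H19, a non-coding RNA known to restrain growth (chr7:142575529-142578143, - strand), was highest in p-qNSCs. Its levels in EGF/FGF were 17.6 and 18.5 CPM in ANS4 and 11.8 and 9.87 in BL6, in BMP 11.8 and 9.88 in ANS4 and 11.3 and 11.6 in BL6, and in BMP/FGF 30.9 and 31.0 in ANS4 and 35.2 and 34.3 in BL6. Every BMP/FGF library lay above every other library. H19 rose 2.30-fold in BMP/FGF against EGF/FGF (1.20, SE 0.14, FDR = 3.78e-07) and was 2.95-fold higher than in BMP (1.56, SE 0.14, FDR = 2.30e-07). The lower level in BMP than in EGF/FGF (−0.36, SE 0.15, FDR = 0.0376) rested on ANS4: it was −0.73 there (FDR = 1.68e-05) and 0.08 in BL6 (FDR = 0.564). It was also not called without filter (FDR = 0.0595), with library size scaling (FDR = 0.0552), with limma on the rlog values (FDR = 0.0619) or without any 1 of the 4 ANS4 libraries of these conditions (FDR 0.0549 to 0.158).

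Ndn (chr7:62346569-62350262, + strand), a MAGE family gene known for restraining the cell cycle in neurons, varied little between libraries. It was at 26.8 and 29.8 CPM in ANS4 and 26.0 and 26.9 in BL6 under EGF/FGF, at 26.0 and 26.9 in ANS4 and 20.9 and 27.2 in BL6 under BMP, and at 26.6 and 26.1 in ANS4 and 27.0 and 27.8 in BL6 under BMP/FGF. The 3 conditions overlapped. The 95% intervals of the log2 differences were −0.28 to 0.05 for BMP and −0.19 to 0.14 for BMP/FGF against EGF/FGF, and −0.07 to 0.26 between the quiescent states, with FDR of 0.207, 0.803 and 0.4.

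Both ligand genes were near 1 CPM. Igf2 (chr7:142650766-142666816, - strand) encodes the fetal growth factor IGF2. It was at 1.67 and 1.45 CPM in ANS4 and 0.940 and 0.831 in BL6 under EGF/FGF, at 0.777 and 0.833 in ANS4 and 0.979 and 1.30 in BL6 under BMP, and at 0.966 and 1.02 in ANS4 and 1.39 and 0.892 in BL6 under BMP/FGF. The conditions overlapped, and no comparison was called over both lines (log2 differences −0.32, −0.19 and 0.12, FDR 0.302 to 0.761). In ANS4 alone Igf2 was lower in BMP than in EGF/FGF (−0.95, SE 0.33, FDR = 0.016), where BL6 gave 0.36 (SE 0.37, FDR = 0.39). The difference between the lines in this change was 1.31 and was not called (SE 0.47, FDR = 0.0964). The antisense gene Igf2os overlaps 7124 bases of Igf2. Gm49394, a protein-coding gene on the same strand, shares 16048 bases with Igf2 and is not among the genes counted. How shared sequence was divided between these genes is uncertain.

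Dlk1 (chr12:109452823-109463336, + strand), a membrane-bound and secreted protein of the Notch ligand family known for its role in the adult subventricular zone, fell from an already low level. It was at 1.15 and 0.673 CPM in ANS4 and 1.52 and 0.987 in BL6 under EGF/FGF, at 0.721 and 0.777 in ANS4 and 0.464 and 0.674 in BL6 under BMP, and at 0.376 and 0.428 in ANS4 and 0.444 and 0.446 in BL6 under BMP/FGF. The BMP/FGF libraries lay below all others, and BMP overlapped with EGF/FGF. Counts were 7 to 29 per library. The gap to BMP was narrow, with 8 counts in each BL6 BMP/FGF library against 9 in BL6 BMP replicate 1. The fall was 2.52-fold in BMP/FGF (−1.33, SE 0.31, FDR = 8.42e-04). The difference in BMP (−0.71, SE 0.29, FDR = 0.0315) was not called by DESeq2 (FDR = 0.0856), in ANS4 alone (−0.28, FDR = 0.542) or after leaving out any of 4 libraries, ANS4 EGF/FGF replicate 1, BL6 EGF/FGF replicate 1 and either BL6 BMP replicate (FDR 0.0619 to 0.151). Between the quiescent states Dlk1 was not called (−0.63, SE 0.34, FDR = 0.159).

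Grb10 (chr11:11930508-12038683, - strand), an adaptor known to dampen insulin and IGF receptor signalling, was close to the limit of detection. Its counts were 0 and 1 in ANS4 and 2 and 0 in BL6 under EGF/FGF, 2 and 6 in ANS4 and 7 and 9 in BL6 under BMP, and 6 and 1 in ANS4 and 4 and 5 in BL6 under BMP/FGF. Summed over the 4 libraries, 24 counts in BMP stood against 3 in EGF/FGF, a ratio per total of 8.38 with an exact 95% counting interval of 2.55 to 43.5. The ratio of BMP/FGF (16 counts) to EGF/FGF was 5.55 (1.59 to 29.7). These intervals cover counting error only. By the exact permutation test over libraries (two-sided) p was 0.0286 for BMP, the smallest that 4 against 4 libraries can give, and 0.0571 for BMP/FGF. BMP and EGF/FGF were separate only after library scaling, since 2 counts were the lowest in BMP (0.111 CPM) and the highest in EGF/FGF (0.104 CPM). In edgeR without filter the log2 difference was 2.83 in BMP (SE 0.76, FDR = 0.00381) and 2.32 in BMP/FGF (SE 0.81, FDR = 0.0207), fitted values that depend on the prior count since 2 libraries held 0 counts.

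Meg3 (chr12:109541001-109571726, + strand), the long non-coding RNA of the Dlk1 domain, had 1 and 2 counts in ANS4 and 3 and 4 in BL6 under EGF/FGF, 0 and 1 in ANS4 and 1 and 2 in BL6 under BMP, and 0 and 1 in ANS4 and 2 and 3 in BL6 under BMP/FGF. With 10, 4 and 6 counts in all, the ratio of BMP to EGF/FGF was 0.419 (exact 95% interval 0.0960 to 1.45), and a difference was not detectable at this depth (exact permutation p = 0.143, two-sided).

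The lines differed in the level of 3 members. BL6 was above ANS4 in Peg3 (log2 difference 0.46, SE 0.05, FDR = 6.85e-06), Peg10 (0.39, SE 0.04, FDR = 1.42e-05) and Plagl1 (0.46, SE 0.09, FDR = 0.00247), and the other 5 tested members were not called. Of all genes 5.35% were higher and 6.21% lower in BL6. The Mest difference between the lines was 0.00, with a 95% interval of −0.09 to 0.10.

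The line differences were also taken within each condition. For Peg3 the line difference was 0.57 in EGF/FGF, 0.78 in BMP and 0.04 in BMP/FGF, the last not called (FDR = 0.742). For Plagl1 it was 0.14 in EGF/FGF (FDR = 0.523), 0.77 in BMP and 0.49 in BMP/FGF. Peg10 was higher in BL6 in each condition, by 0.31, 0.66 and 0.21. H19 was lower in BL6 in EGF/FGF (−0.74, FDR = 0.00203) and close in BMP (0.09) and BMP/FGF (0.16).

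The change between conditions was then compared between the lines as an interaction, the BL6 difference minus the ANS4 difference. For BMP against EGF/FGF 2 of the 8 members were called, H19 and Peg10, where 8.49% of all genes were. For BMP/FGF against EGF/FGF 2 were called, H19 and Peg3, against 4.82% of all genes, and for BMP/FGF against BMP 3, Peg3, Peg10 and Mest, against 13.5%. The Peg10 call in BMP against EGF/FGF and the Mest call were each kept in only 4 of 19 alternatives. Peg3 gave the largest value between the quiescent states: BMP/FGF was below BMP by −0.19 in ANS4 (FDR = 0.0312) and by −0.92 in BL6 (FDR = 4.19e-06), an interaction of −0.72 (SE 0.11, FDR = 6.01e-04). In H19 the rise from EGF/FGF to BMP/FGF was 0.79 in ANS4 and 1.68 in BL6, an interaction of 0.91 (SE 0.15, FDR = 0.00195). For Plagl1 no interaction was called (FDR 0.107 to 0.433).

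Most neuroblast markers moved in the same direction as Peg10 and Plagl1 between the conditions. Of 8 listed, 7 were tested, and 6 of them rose under BMP relative to EGF/FGF, and all 7 were lower in BMP/FGF than in BMP. In BMP/FGF against EGF/FGF 5 were called higher and 2 lower. Their summed level was 291 to 322 CPM in EGF/FGF and 325 to 361 in BMP/FGF, and in BMP it was 758 and 758 in ANS4 but 1249 and 1360 in BL6. Dcx, a microtubule-binding protein of neuroblasts, was higher by 7.68 on the log2 scale in BMP and 5.29 in BMP/FGF. Their part in the Peg10, Plagl1, Peg3 and Grb10 values was not tested.

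Markers of other cell types were low, apart from those of the oligodendrocyte lineage. Oligodendrocyte lineage markers summed to 75.7 to 92.1 CPM in EGF/FGF, 240 to 285 CPM in d-qNSCs and 317 to 334 CPM in p-qNSCs, with 5 of the 6 tested higher in both quiescent states. The sum hides moves in both directions: in BMP/FGF against BMP 1 of the 6 was called higher and 3 lower. Their median log2 difference there was −0.45, and their part in the members' values was not tested. Microglial markers, 5 of 12 listed being in the table, summed to 9.57 to 14.7, 5.33 to 6.21 and 7.13 to 9.32 CPM in the 3 conditions. Vascular and fibroblast markers (10 of 12) summed to 3.50 to 7.02 CPM over all libraries. Here too the sum hides opposite moves. Mean Col1a1 fell from 2.03 CPM in EGF/FGF to 0.656 in BMP and Col3a1 from 1.09 to 0.0130, while Pdgfrb rose from 0.533 to 1.70. Of the 4 tested, BMP gave 1 call upward and 2 downward against EGF/FGF, and BMP/FGF gave 2 each way. Choroid plexus markers (7 of 8) summed to 1.22 to 2.80 CPM over all libraries. Igf2 and Dlk1, which vascular, fibroblast and choroid plexus cells are known to express, were at a like low level. The part of such cells in their values was not tested. Otx2, which defines choroid plexus, had 0 counts in all EGF/FGF libraries and at most 3 in any library. The choroid plexus markers did not move together: of the 2 tested, 1 was called higher and 1 lower in BMP than in EGF/FGF. Ttr had at most 1 count in an EGF/FGF library and up to 22 in a BMP library. Aqp1 averaged 1.38 CPM in EGF/FGF and 0.785 CPM in BMP.

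**Figure D3:**
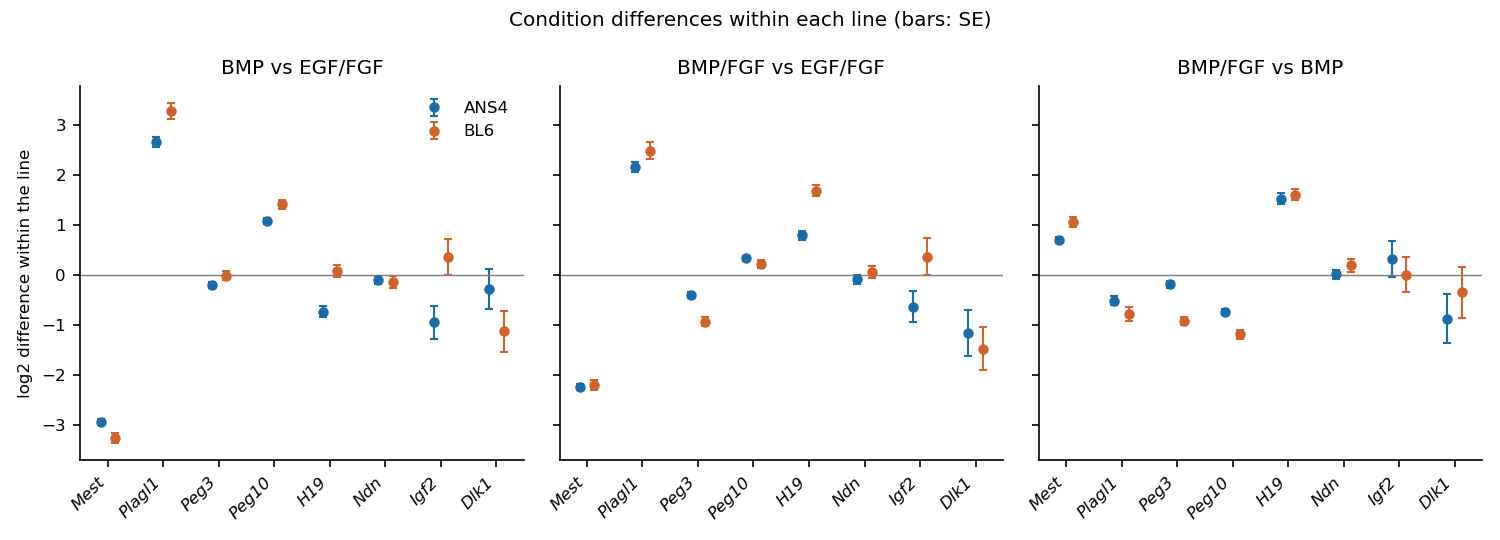
Log2 difference between conditions computed within each line for the 8 tested members (vertical axis, log2 difference; points ANS4 in blue and BL6 in orange; bars, SE; 2 libraries for each line and condition). The estimates of the lines lie furthest apart in Igf2 in BMP against EGF/FGF (−0.95 in ANS4 and 0.36 in BL6, interaction not called), and in Peg3 between BMP/FGF and BMP ANS4 gives −0.19 and BL6 −0.92.

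Imprinted genes that share a control region with a member did not all move as the member did. In the Peg3 domain the paternally expressed Usp29, which starts next to Peg3 and encodes a deubiquitinase, stood at 2.85 to 4.23 CPM in EGF/FGF, 3.22 to 6.44 CPM in d-qNSCs and 1.93 to 2.36 CPM in p-qNSCs. It was higher in BMP (0.51, SE 0.15, FDR = 0.00628), lower in BMP/FGF (−0.63, SE 0.17, FDR = 0.00291) and lower in BMP/FGF than in BMP (−1.13, SE 0.17, FDR = 3.71e-05). Its rise in BMP was not called by limma on the rlog values (FDR = 0.0738) or in ANS4 alone (FDR = 0.224). It was higher in BL6 (0.43, FDR = 0.0188), a call kept in 11 of 20 alternatives and lost, among others, by DESeq2 (FDR = 0.0819), in BMP/FGF alone (0.06, FDR = 0.919) and without any 1 of 6 libraries (FDR 0.0528 to 0.0689). Zim1, listed as maternally expressed, was at 1.24 to 1.29 CPM on average in the 3 conditions and was not called in any (FDR 0.8 to 0.926).

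In the Peg10 domain Sgce, the paternally expressed epsilon-sarcoglycan gene that starts next to Peg10 on the other strand, was at 41.1 to 49.8 CPM in EGF/FGF, 81.0 to 95.6 CPM in d-qNSCs and 93.1 to 105.8 CPM in p-qNSCs. It rose by 1.03 in BMP (SE 0.07, FDR = 7.48e-11) and 1.17 in BMP/FGF (SE 0.07, FDR = 1.46e-11), and between the quiescent states, where Peg10 fell by 0.98, Sgce gave 0.13 (FDR = 0.101). Asb4, Ppp1r9a and Pon2, listed as maternally expressed, also rose in both. Asb4 rose by 1.79 and 1.88 from 2 to 5 counts per library, Ppp1r9a by 0.37 and 0.24 and Pon2 by 0.55 and 0.44. None of them was called between BMP/FGF and BMP. The Ppp1r9a rise in BMP/FGF was not called with limma on the rlog values (FDR = 0.0773), without ANS4 BMP/FGF replicate 2 (FDR = 0.0507) or in BL6 alone (0.06, FDR = 0.502), nor was the Asb4 rise in BMP in ANS4 alone (FDR = 0.0513). Pon3 had 2 to 12 counts per library and was not tested.

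The Ndn domain, on chromosome 7, held both large rises and large falls around an Ndn level that was not called. Peg12, a paternally expressed gene known to bind the WNT pathway kinase GSK3, fell by 2.81 (SE 0.08, FDR = 1.25e-15) in BMP and 2.73 (SE 0.08, FDR = 1.87e-15) in BMP/FGF. Snrpn, a splicing protein gene, rose by 2.19 (SE 0.25, FDR = 3.05e-07) and 1.29 (SE 0.27, FDR = 2.77e-04) and was lower in BMP/FGF than in BMP (−0.90, FDR = 0.00456). This lower level was −1.46 in BL6 alone (FDR = 2.73e-04) and −0.31 in ANS4 alone, where it was not called (FDR = 0.189). Snurf, which lies within the Snrpn span on the same strand, gave 0.32 (FDR = 0.00137), 0.10 (FDR = 0.252) and −0.22 (FDR = 0.0365), and how shared sequence was divided between these 2 genes is uncertain. The last call was kept in 13 of 22 alternatives, and was lost without filter (FDR = 0.0655), with the replicate block (FDR = 0.0572), in ANS4 alone (FDR = 0.155) and without any 1 of 6 libraries (FDR 0.0501 to 0.15). Ube3a, a ubiquitin ligase that is maternal in neurons, fell by 0.37 and 0.48, and Mkrn3 was not called (FDR 0.573 to 0.812).

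In the Grb10 domain Ddc fell by 1.67 and 1.71, with 16 to 21 counts per library under EGF/FGF and 3 to 10 in the quiescent states. In the Dlk1 domain Rtl1 and Mirg had at most 2 counts in any library. Together with Dlk1 and Meg3 this left the domain at 1.52 CPM or less for each of its 4 listed genes.

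**Figure D4:**
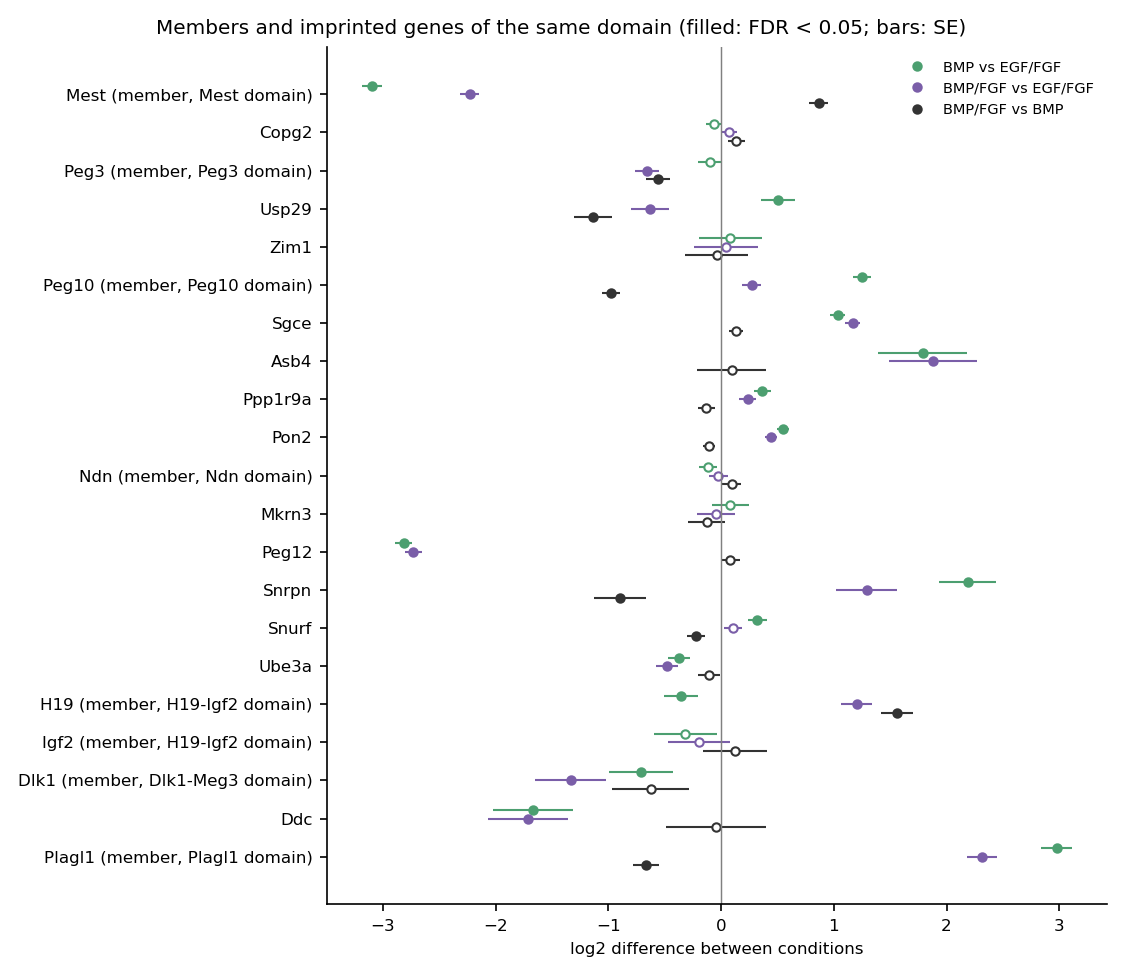
Log2 difference between conditions for the tested members and the tested imprinted genes of the same domain (horizontal axis, log2 difference; rows, genes grouped by domain with the member first; colours, the 3 comparisons; filled points, FDR under 0.05; bars, SE). Within the Peg10 and Ndn domains genes part from each other, with Peg12 at −2.81 and Snrpn at 2.19 in BMP while Ndn is at −0.12.

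Of 52 other imprinted genes looked up, 40 were in the table and 32 were tested. Of these 32, 16 were higher and 8 lower in BMP, 14 higher and 10 lower in BMP/FGF, and 3 higher and 8 lower in BMP/FGF against BMP. The shares over all tested genes were 40.2% and 38.8%, 40% and 38.1%, and 19.2% and 21.5%. The median log2 differences of the 32 genes were 0.20, 0.07 and −0.06. By listed parental origin, which was not measured in these cells, 8 of the 15 genes listed as paternally expressed were higher and 3 lower in BMP. Of the 17 listed as maternally expressed, 8 were higher and 5 lower. Among called genes at a mean of 1 CPM or more, the 3 largest rises and 3 largest falls of each comparison added to the genes already named Osbpl5 (1.82 in BMP and 1.15 in BMP/FGF), Igf2r (−1.18 and −1.03) and Mcts2 (−0.87 and −1.02). In BMP/FGF against BMP the rises were Cd81 (0.36), Inpp5f (0.31) and Impact (0.15), and Osbpl5 (−0.67) was the third of the falls after Usp29 and Snrpn. Impact lost its call under 10 of its alternatives. Igf2r is the receptor that clears IGF2. Between the lines 4 were higher in BL6, Snrpn (0.50), Usp29, Kcnq1ot1 (0.37) and Ppp1r9a (0.19), and the other 28 were not called. The Snrpn call (FDR = 0.0489) was kept in 8 of 20 alternatives, and without BL6 EGF/FGF replicate 2 the difference was 0.25 (FDR = 0.334).

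Of the other genes of the IGF pathway, 9 of 10 listed were tested, and 3 were higher and 5 lower in BMP, 2 higher and 6 lower in BMP/FGF. Of all tested genes 40.2% were higher and 38.8% lower in BMP, and 40% and 38.1% in BMP/FGF. Igf1, the other IGF ligand, fell by 3.44 (SE 0.24, FDR = 4.09e-10) and 2.78 (SE 0.23, FDR = 2.89e-09), whereas Igf2 was not called. The receptor gene Igf1r rose by 0.55 and 0.26, and Igf2bp2, whose product binds Igf2 mRNA, fell by 1.17 and 0.78. Between BMP/FGF and BMP, 1 was higher (Igf2bp2, 0.39) and 6 lower, where 19.2% of all genes were higher and 21.5% lower.

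The genes that maintain imprints were mostly lower in quiescence. Of 9 tested of 10 listed, 7 were lower in both BMP and BMP/FGF and the other 2, Ctcfl and Zfp445, were not called. Of all tested genes 38.8% were lower in BMP and 38.1% in BMP/FGF. Uhrf1 fell by 2.60 and 3.41 and Dnmt1, the maintenance DNA methyltransferase, by 1.85 and 2.19, beside the fall of the proliferation genes given above, and the part of cell division in these values was not tested. Trim28 fell by 0.79 and 1.20 and Zfp57, which binds methylated imprint control regions, by 0.45 and 0.63. Zfp445 gave 0.01 and −0.03 and was not called.

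For members at 10 CPM or more, genes alike in pattern over the 12 libraries were taken by Pearson correlation of log2 CPM among 12464 genes, as a description, since the 12 points share lines and conditions. Mest was most like Unc5b (0.997), Trim9 (0.997) and Lyn (0.997), and Plagl1 like Cdk19 (0.992) and Hip1r (0.991). For Mest 937 genes and for Plagl1 783 genes exceeded 0.95. Peg10 was like Mtss1 (0.993) and Neb (0.979), with 41 genes above 0.95, H19 most like Gstm1 (0.970), Cmtm3 (0.960) and Pgf (0.959), with 8, and Peg3 most like Son (0.974), Fam13b (0.962) and Pclo (0.955), with 4. Ndn had 0 genes above 0.95, and its nearest were Cope (0.853), Cuta (0.840) and Metrn (0.836).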

How the data were processed

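RNA-seq was quantified in 12 libraries. The authors trimmed reads with Trim Galore (0.5.0), pseudoaligned them to the mm10 transcriptome with kallisto (0.44.0) and summed them to genes with tximport, and deposited estimated counts, whole numbers in the file. A second deposited table held log2 values from the rlog transformation of DESeq2 (1.27.32), used for 1 alternative only. Strand is not given in the sources used here. Multi-mapping reads were divided by the authors' tool, which could shift counts between overlapping genes.

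Genes were filtered with filterByExpr on the 6 groups of line and condition (13641 kept, 3724 not), scaled by TMM (factors 0.978 to 1.037) and fitted with glmQLFit and glmQLFTest in edgeR (4.0.16) with condition and line as terms. Line by condition interactions came from the 6 group means, with Benjamini-Hochberg adjustment across the 13641 genes. Differences were called at FDR under 0.05. limma (3.58.1) and DESeq2 (1.42.0) served as alternatives, beside library size scaling, no filter, no line term, a replicate block, each line or condition alone and each library left out. The fit was tested on simulated data with 200 changed genes. For BMP against EGF/FGF it recovered 199, with 11 false calls, at a median absolute log2 difference of 1.0. For the interaction it recovered 193, with 19 false calls, at a median of 1.48. That is larger than any interaction called in the members, so the simulation does not cover interactions of their size. Permutation tests were exact, on log2(CPM + 0.1).

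The members and lists were chosen with earlier results of these data known. The text names all members, every listed imprinted gene of a member's domain in the table, in each comparison the 3 largest rises and falls among the other imprinted genes called with a mean of at least 1 CPM, and the 3 genes most like each member of at least 10 CPM (log2 CPM, prior count 2), apart from a few genes not reported here. Lists are given by count with their highest-expressed or defining genes. Coordinates are GENCODE's for GRCm38, the build of mm10.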

Additional observations from a re-analysis of the deposited data

Results flagged for a closer look

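In 7 cases a member's change between conditions differed between the lines by the interaction test (edgeR, BL6 difference minus ANS4 difference, FDR under 0.05). These were H19 in BMP against EGF/FGF (0.82, FDR = 0.00498) and in BMP/FGF against EGF/FGF (0.91), Peg3 in BMP/FGF against EGF/FGF (−0.53, FDR = 0.0126) and in BMP/FGF against BMP (−0.72), Peg10 in BMP against EGF/FGF (0.34, FDR = 0.0497) and in BMP/FGF against BMP (−0.43, FDR = 0.0099), and Mest in BMP/FGF against BMP (0.37, FDR = 0.0473). Over fits without 1 library the Peg10 value in BMP against EGF/FGF was 0.250 to 0.449 and the Mest value 0.199 to 0.525. Each kept its call in 4 of 19 alternatives. Both lost it without filter, with limma on the rlog values and with only the 8 libraries compared. The FDR there was 0.0566 to 0.115 for Peg10 and 0.0632 to 0.0977 for Mest. The Peg3 value against EGF/FGF lost it without any of 4 libraries, ANS4 BMP/FGF replicate 1, ANS4 EGF/FGF replicate 1, BL6 BMP/FGF replicate 2 and BL6 EGF/FGF replicate 1 (FDR 0.06 to 0.0714), and the Peg10 value between the quiescent states without BL6 BMP/FGF replicate 2 (FDR = 0.0644). In 30 groups of 4 libraries, 1 per member and condition, no library of a member stood apart by Dixon's criterion. Each group pooled both lines, so a difference between the lines widened its range and could hide a stray library.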

How the results depend on the processing

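The called differences of Mest, Plagl1 and Peg10 in BMP against EGF/FGF, of Mest, Plagl1, H19, Peg3 and Dlk1 in BMP/FGF against EGF/FGF, and of Mest, Plagl1, Peg10, H19 and Peg3 in BMP/FGF against BMP kept their direction and call under every alternative run. Directions turned where the value was near 0 or within 1 line: H19 in BMP against EGF/FGF was 0.081 and Igf2 0.357 in BL6 alone, Ndn in BMP/FGF against EGF/FGF was 0.051 in BL6 alone and −0.060 to 0.011 over fits without 1 library (turned without ANS4 EGF/FGF replicate 2), Igf2 there was 0.361 in BL6 alone and −0.381 to 0.0055 over such fits (turned without ANS4 EGF/FGF replicate 1), and Igf2 in BMP/FGF against BMP was −0.064 without BL6 BMP/FGF replicate 1. In the line difference Ppp1r9a was −0.026 and Snrpn −0.25 in BMP/FGF alone. The cause was not tested.

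Line differences: 2 other imprinted genes were higher with limma on rlog, in EGF/FGF alone and in BMP alone (4 in the fit reported), 1 member and 2 other imprinted genes were lower in EGF/FGF alone (0), and 444 and 422 genes were lower in BMP and BMP/FGF alone (847), where fewer libraries were used. Interaction in BMP against EGF/FGF: 1 member (2) without filter, with the replicate block and with only the 8 libraries compared, the last with 607 genes (1158). Interaction in BMP/FGF against EGF/FGF: 1666 genes (658) with only the 8 libraries compared. With the longest transcript the levels per kb were 0.00609 (Meg3), 12.1 (Peg3), 0.155 (Dlk1), 10.0 (Plagl1) and 0.230 (Igf2), from the longer divisor.

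Leaving out 1 library at a time, where the lone library left is assumed to vary like the other groups, gave 1 to 3 members lower in BMP against EGF/FGF, the lowest without ANS4 EGF/FGF replicate 1. In the line difference it gave 382 to 1178 genes higher and 518 to 1179 lower, and 2 to 8 other imprinted genes higher and 0 to 3 lower, the highest of these without a BL6 BMP library. Interactions ranged over 1 to 3 members and 584 to 2403 genes in BMP against EGF/FGF, 1 to 2 members and 177 to 1353 genes in BMP/FGF against EGF/FGF, and 1 to 3 members and 893 to 2789 genes in BMP/FGF against BMP, with the most genes in each without a BL6 BMP library.

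Replicate numbers did not pair the libraries: deviations of equally numbered libraries correlated at −0.0668 to 0.0484. With the replicate block H19 lost its call in BMP against EGF/FGF (FDR = 0.055), Peg10 its interaction there (0.34, FDR = 0.0621), and 5402 genes were higher and 5190 lower in that comparison. At these depths 3 counts correspond to 0.154 to 0.166 CPM, which limits Grb10 and Meg3.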
